A study of Mus musculus with 12 samples.

Results

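Gene expression in cartilage progenitor pellets was compared between the last day in chondrogenic medium (D7) and the first day after the change to osteogenic medium (D8). The comparison rests on 6 of the 12 RNA-seq libraries of the series, 3 labelled D7 and 3 labelled D8, chosen by their time point labels. All of them came from murine mesenchymal progenitors that were digested out of the femoral and tibial heads and condyles of C57/BL6 pups aged 5 or 6 days. The cells were expanded for 1 day, spun into pellets of unmodified cells and kept for 7 days in chondrogenic differentiation medium. D7 pellets were collected at that point, and D8 pellets after 1 further day in osteogenic differentiation medium. The other 6 libraries, 3 at D10 and 3 at D28, had spent 3 and 21 days in osteogenic medium. They entered the filter of genes and the estimate of spread behind each p-value, and also serve to follow genes that changed at D8. No library was kept in chondrogenic medium until day 8, so the change of medium and the additional day in culture cannot be told apart. The sources used here give neither the composition of the media nor whether replicates were separate isolations, and p-values therefore measure only the spread between these pellets, which may be technical.

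Chondrocytes of the growth plate secrete a matrix of type II collagen and aggrecan under the transcription factor SOX9. As they become hypertrophic they make type X collagen, osteopontin, bone sialoprotein and matrix-degrading proteases, and some of them go on to an osteoblast programme driven by RUNX2 and SP7. A cell that secretes large amounts of matrix relies on the chaperones of the endoplasmic reticulum, whose genes are induced when unfolded proteins accumulate there. Growth factors and serum act on such cells through receptor tyrosine kinases and ERK, and ERK induces its own inhibitors. Glucocorticoids, which many differentiation media contain, act through a nuclear receptor on genes such as Tsc22d3 and Fkbp5.

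Each value is the log2 of an equalized read count plus 1, given by the authors per gene symbol and library, and is called the level here. The equalization left each library with nearly the same set of sorted values, so library totals are lost. Relative depth, taken from 562 genes with few reads, was 0.955, 1.06 and 0.790 in the D7 libraries and 1.05, 0.962 and 1.22 in the D8 libraries. Levels at or under 3 reads, at most 2.87, are dominated by counting error. All 8 chondrocyte markers were expressed at both time points, but their summed unlogged level consists mainly of Col2a1, which the equalization holds at 1 value, and cannot show a change. Of the 6 erythroid markers, the 4 globin genes were at 0. The 8 macrophage markers, in sum mainly Lyz2, stood at 1188 to 1395 at D7 and 1026 to 1423 at D8, and single markers differed. Cd14 was called higher (1.33, adjusted p 0.0020), and of the 6 that did not overlap between the groups 2 were higher and 4 lower, where 37.1% of all genes did not overlap. The 7 osteoclast markers summed to 4810 to 5814 at D7 and 6839 to 9453 at D8, without overlap, a sum made up mainly of Ctsk. Ctsk, cathepsin K, changed by 0.69 (adjusted p 0.0031), and Atp6v0d2, a proton pump subunit, was called higher (1.28, adjusted p 0.023). The call of Atp6v0d2 was lost without D7 replicate 2 (adjusted p 0.088) and without D8 replicate 1, 2 or 3 (0.053, 0.065 and 0.067). Calcr was at 0 and Dcstamp at or under 3 reads in all 6 libraries, and Acp5, Mmp9 and Ocstamp overlapped between the groups. The 7 osteoblast markers summed to 362800 to 574600 at D7 and 156800 to 339000 at D8, with 3 called lower and 2 higher, and this sum is nearly all Col1a1, whose call is lost under several settings given further on. The sums of the skeletal muscle, adipocyte and endothelial markers were also lower at D8 and are given further on. The part of these markers in the other changes was not tested.

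Of 17674 genes tested, 1244 were called at D8, 571 higher and 673 lower, which is 7.04% of the tested genes, or 3.23% higher and 3.81% lower. A call required an adjusted p under 0.05 by limma and a log2 fold change of at least 1 in size. The fold change is the D8 mean minus the D7 mean of the levels, and it understates the change of genes with few reads. A log2 change of 2 was exceeded by 388 called genes and a change of 3 by 75, of which 38 were higher and 37 lower. The D7 and D8 libraries of 1224 called genes did not overlap, and over all tested genes this held for 6559, or 37.1%. The median change of all tested genes was 0.03, and the equalization keeps this centre near 0. Past the adjusted p alone, 2107 genes were higher and 1607 lower, which is 11.9% and 9.09%. Among the called genes, 99 had at most 3 reads in every D7 library and 74 had at most 3 in every D8 library. Scaling by median of ratios gave 517 higher and 740 lower genes, a share of higher calls of 41.1% against 45.9% with the values as deposited. The plot of level against change shows that called genes occur from the lowest levels up to those of the most abundant matrix genes.

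**Figure D1:**
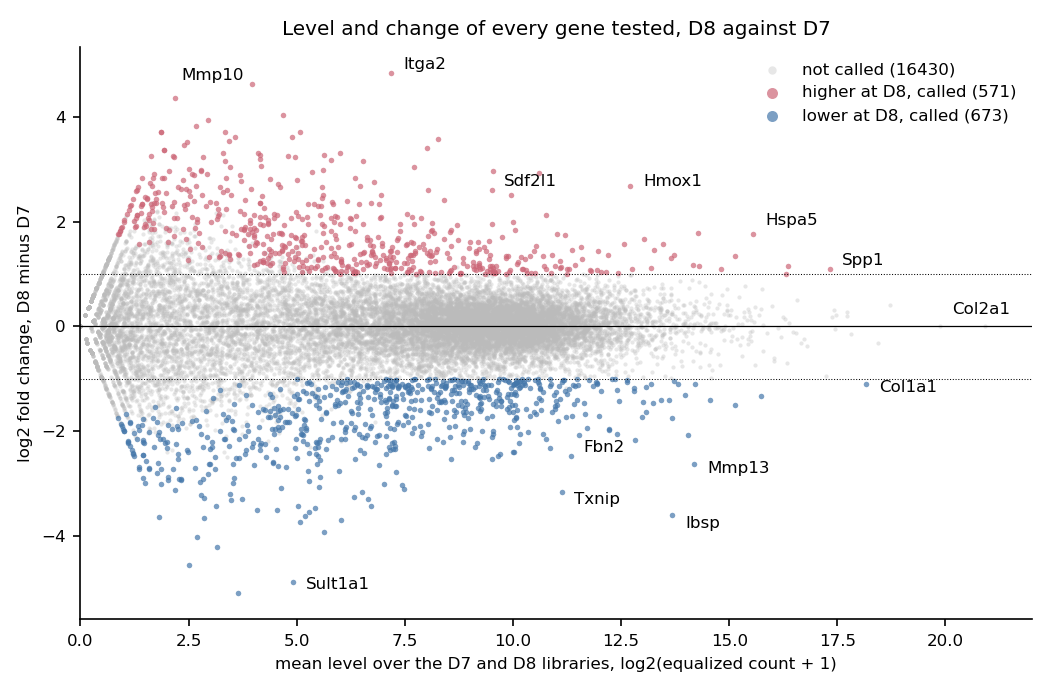
Each point is 1 of the 17674 genes tested. The x axis is the mean level over the 3 D7 and 3 D8 libraries, log2(equalized count + 1), and the y axis is the log2 fold change, D8 minus D7. The 571 genes called higher are red, the 673 called lower are blue, and dotted lines mark a change of 1. Itga2 and Mmp10 lie at the top of the named genes and Sult1a1 at the bottom, while Ibsp and Mmp13 fell from high levels and Col2a1 stands at the largest value in all 6 libraries.

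Genes of the unfolded protein response rose together. All 15 tested members of the list were higher at D8 without overlap between the libraries, against 21.2% of all tested genes, and 10 passed the fold threshold, against 3.23% of all tested genes called higher. The other 5, Dnajb9, Pdia6, Canx, Herpud1 and Xbp1, passed the adjusted p with smaller changes of 0.31 to 0.96. The median change of the list was 1.13, against 0.03 for all genes. Sdf2l1, a chaperone cofactor of the endoplasmic reticulum, stood at 8.00, 8.30 and 8.33 in the D7 libraries and at 10.64, 10.91 and 10.89 in the D8 libraries. Its log2 fold change of 2.60 (SE 0.14, adjusted p 2.7e-08) is a 6.08-fold rise, and the groups were far apart. Hspa5, the central chaperone BiP, rose 3.42-fold, from 14.51, 14.83 and 14.64 to 16.64, 16.34 and 16.34 (log2 fold change 1.78, SE 0.21, adjusted p 3.1e-05). Creld2, a secreted disulfide isomerase-like protein, rose from 10.22, 10.44 and 10.31 to between 11.95 and 12.26. Every D8 library of these genes lay more than 1 log2 unit above every D7 library. Hyou1, a large chaperone, rose by 1.66 and Manf, a secreted stress protein, by 1.45. The lectin chaperone Calr rose by 1.34, the HSP90 paralogue Hsp90b1 by 1.16, Pdia4 by 1.13, Dnajb11 by 1.08 and the stress factor Ddit3 by 1.06. Derl3, which takes part in removing misfolded proteins and is not on the list, went from 4.69, 5.05 and 5.08 to 8.13, 7.74 and 8.46 (log2 fold change 3.17, SE 0.26, adjusted p 1.7e-06). On the amino acid response list, genes of a related stress pathway, none of 17 members was called by limma, although 8 higher and 2 lower members passed the adjusted p alone and 9 and 3 had an unadjusted p under 0.05.

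The promoters of several of these genes hold the endoplasmic reticulum stress element (ERSE), a pair of short motifs to which NF-Y and the stress factors ATF6 and XBP1 are known to bind. It was searched as CCAAT and CCACG separated by 9 bases, on both strands, in the 250 bases before the start site of RefSeq (GRCm38.p6). Of the tested genes, 12977 had such a sequence, and 21 of them, 0.162%, held the element. On the unfolded protein response list it was found in 6 of 13 promoters, those of Hspa5, Hsp90b1, Creld2, Calr, Canx and Pdia6. Over the whole comparison it was found in 6 of the 409 promoters of higher genes and in none of the 479 promoters of lower genes. The promoters of the called genes of the list that held it, and of Derl3, are shown in transcription direction because they share the element, which is in capitals.
Hspa5, chr2:34771840-34772089, plus strand: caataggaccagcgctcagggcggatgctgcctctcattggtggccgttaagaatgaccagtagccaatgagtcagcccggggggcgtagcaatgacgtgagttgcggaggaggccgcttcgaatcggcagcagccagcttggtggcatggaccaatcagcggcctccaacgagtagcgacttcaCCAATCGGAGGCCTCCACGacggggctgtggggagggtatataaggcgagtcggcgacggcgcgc
Hsp90b1, chr10:86705445-86705694, minus strand: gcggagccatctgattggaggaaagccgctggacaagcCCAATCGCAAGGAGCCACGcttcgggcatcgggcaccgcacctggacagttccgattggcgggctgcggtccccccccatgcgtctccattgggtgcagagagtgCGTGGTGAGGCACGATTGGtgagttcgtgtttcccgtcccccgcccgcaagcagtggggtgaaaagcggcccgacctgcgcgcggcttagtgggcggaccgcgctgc
Creld2, chr15:88819396-88819645, plus strand: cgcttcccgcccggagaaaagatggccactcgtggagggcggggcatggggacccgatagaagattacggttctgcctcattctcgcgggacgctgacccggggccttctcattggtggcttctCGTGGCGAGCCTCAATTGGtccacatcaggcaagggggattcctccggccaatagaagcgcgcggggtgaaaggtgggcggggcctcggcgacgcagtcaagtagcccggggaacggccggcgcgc
Calr, chr8:84846932-84847181, minus strand: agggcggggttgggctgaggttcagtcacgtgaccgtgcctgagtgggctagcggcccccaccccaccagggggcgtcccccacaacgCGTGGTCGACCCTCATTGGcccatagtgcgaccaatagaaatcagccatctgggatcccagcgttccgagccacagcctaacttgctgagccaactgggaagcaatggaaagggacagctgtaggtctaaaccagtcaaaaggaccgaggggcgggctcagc
Derl3, chr10:75893148-75893397, plus strand: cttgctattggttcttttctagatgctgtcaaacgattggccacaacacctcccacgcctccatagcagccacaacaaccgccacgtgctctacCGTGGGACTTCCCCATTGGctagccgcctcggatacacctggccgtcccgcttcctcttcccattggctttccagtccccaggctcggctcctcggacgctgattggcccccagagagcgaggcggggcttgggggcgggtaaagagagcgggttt
The element of Hspa5 begins 65 bases before the start and that of Hsp90b1, which occurs in 2 copies, 212 and 107 bases before it. In Creld2, Calr and Derl3 it begins 126, 162 and 156 bases before the start. Tdrd9 was the other higher gene with a match (log2 fold change 1.78, adjusted p 0.026). A match describes the sequence and is not a measured binding site.

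Oxidative stress genes that NRF2 is known to control rose in part. Of 12 tested members, 8 were called higher and none lower, against 3.23% of all genes higher, with a median change of 1.09. Hmox1, the heme-degrading enzyme, went from 11.17, 11.41 and 11.54 at D7 to 14.31, 14.07 and 13.79 at D8, a 6.45-fold rise (log2 fold change 2.69, SE 0.24, adjusted p 3.5e-06). Nqo1, a quinone reductase, rose 3.99-fold, from 8.80, 9.28 and 8.89 to 11.23, 10.90 and 10.84. The libraries of the groups did not overlap for 11 of the 12 genes, against 37.1% of all genes. The glutathione synthesis subunit Gclm rose by 1.24, the thioredoxin reductase Txnrd1 by 1.09, and Srxn1 and Osgin1 by 1.10 each. Both ferritin genes rose, Ftl1 by 1.32 and Fth1 by 1.00, and their processed pseudogenes may have taken part of their reads. Slc7a11, the cystine transporter, changed by 0.85 (adjusted p 0.0099), Gclc by 0.42 (adjusted p 0.086), G6pdx by 0.39 (adjusted p 0.062) and Me1 by -0.01 (adjusted p 0.97). Without D8 replicate 1 the count of called members was 5. The antioxidant response motif, searched as TGACNNNGC on both strands, was found in 2 of the 10 promoters of the list with a sequence, against 12.1% of all promoters.

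Feedback inhibitors and targets of ERK rose in part. Of the 15 members, 7 were called higher and none lower, against 3.23% of all genes higher, and the median change was 0.98. Dusp4, a phosphatase that inactivates ERK in the nucleus, went from 4.56, 4.16 and 3.26 to 7.56, 7.12 and 7.14, a 9.72-fold rise (log2 fold change 3.28, SE 0.34, adjusted p 1.2e-05). Etv4, an ETS factor, went from 4.04, 4.43 and 3.87 to 7.34, 7.26 and 6.72, and its relative Etv5 from 7.18, 7.97 and 7.75 to 9.60, 9.27 and 9.44. Spry2, an inhibitor of receptor tyrosine kinase signalling, rose 4.41-fold, from 6.49, 6.29 and 6.66 to 8.67, 8.72 and 8.47. For each of these 4 genes the lowest D8 library exceeded the highest D7 library. Dusp5 rose by 1.44, Phlda1 by 1.37 and Spry4 by 1.09. Dusp6, the cytoplasmic ERK phosphatase, changed by 0.98 (adjusted p 0.0011) and missed the fold threshold, whereas Spred1 (-0.02, adjusted p 0.93) and Spred3 (-0.13, adjusted p 0.77) did not pass the test and overlapped between the groups. Of 22 immediate early factors Egr3 was the single call, a share near the 3.23% of all genes called higher. It went from 4.14, 4.86 and 3.72 to 7.08, 6.71 and 5.95 (log2 fold change 2.34, adjusted p 0.00021), and Egr1 stood at 9.87, 9.91 and 10.18 against 10.42, 10.15 and 10.01.

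Genes of ligands, cytokines and prostaglandin enzymes were called in both directions in the same comparison. Whether they are linked to the ERK genes was not tested. Among 15 genes of the EGF receptor family and its ligands, 3 were called higher, against 3.23% of all genes, and all 3 are ligands. Past the adjusted p alone, 4 of the 15 were higher and 3 lower, against 11.9% and 9.09% of all genes. Ereg, epiregulin, stood at 3.07, 4.16 and 3.56 at D7 and at 6.84, 6.31 and 6.05 at D8 (log2 fold change 2.80, SE 0.32, adjusted p 2.6e-05). Areg, amphiregulin, was barely detected at D7, with 3 reads or fewer per library (0.94, 0.00 and 0.00), and stood at 3.45, 3.06 and 2.50 at D8. Its call (adjusted p 0.0068) was lost when low values were raised to the level of 3 reads (adjusted p 0.65). Hbegf rose by 1.02, close to the threshold, and was 0.97 under median of ratios scaling, 0.92 without D7 replicate 1 and 0.93 without D8 replicate 2. Among 12 genes of the FGF system Fgf1 was the single call, a share near the 7.04% of all genes called, with a change of -1.01 whose adjusted p reached 0.11 without D8 replicate 1. Of 10 IGF genes 2 were called, against the same 7.04%: Igf1 fell by 1.19 and Igfbp5, an IGF binding protein, rose by 1.09. Of 22 chemokine and cytokine genes 4 were called, against 7.04% of all genes, and of these Ccl2 rose by 1.94, Lif by 1.82 and Il11 by 1.66, and Cxcl12 fell by 1.24. Without D8 replicate 2 the change of Cxcl12 was -0.98, short of the threshold. Ptgs2, the inducible prostaglandin synthase, rose 5.70-fold from 8.73, 8.87 and 8.51 to 11.34, 11.26 and 11.04 (log2 fold change 2.51, SE 0.32, adjusted p 6.3e-05), while Hpgd, which degrades prostaglandins, fell by 1.47.

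**Figure D2:**
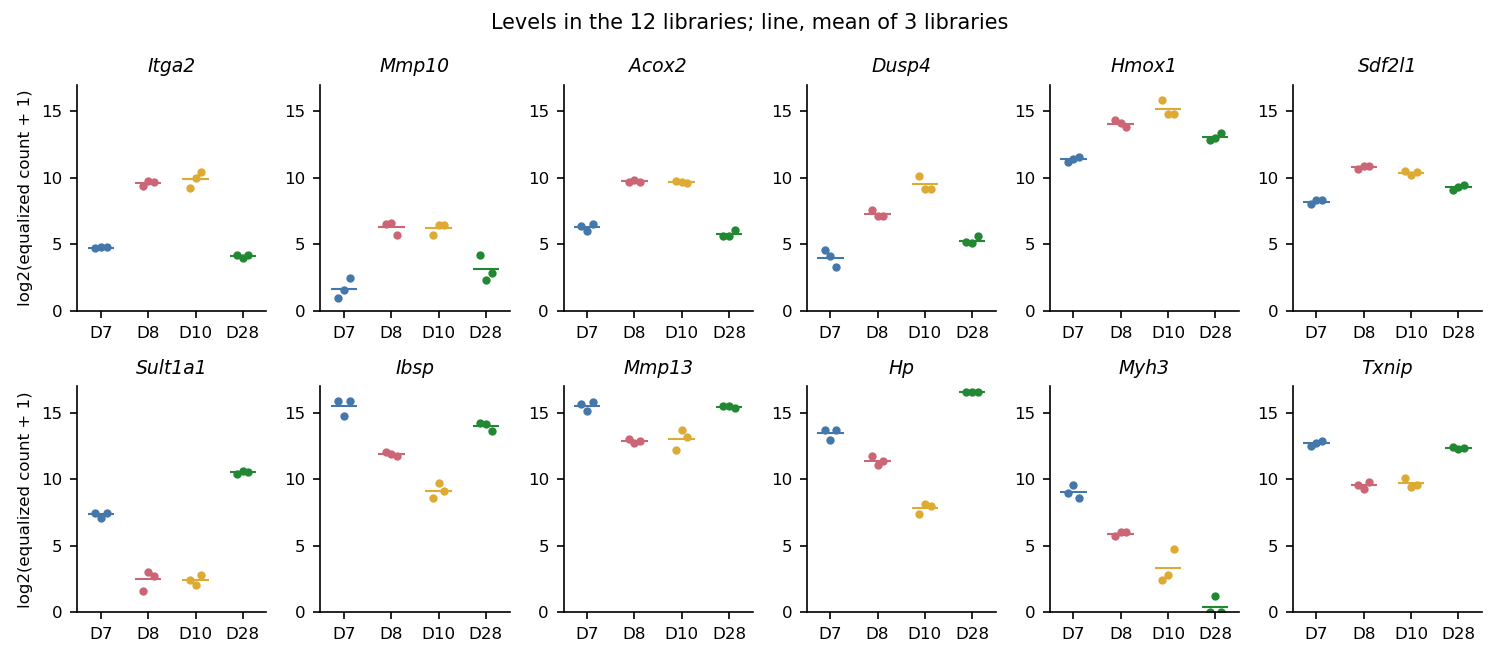
Levels, log2(equalized count + 1), of 12 named genes in the 12 libraries by time point. Points are libraries and lines are means of 3. In all 12 panels the D7 and D8 libraries do not overlap, and Itga2, Mmp10, Acox2, Dusp4, Hmox1 and Sdf2l1 were higher at D8 while the 6 genes of the lower row were lower.

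The largest rise by the naming rule was that of Itga2, the collagen-binding integrin subunit alpha 2 (chr13:114833081-114932100). Its level was 4.69, 4.80 and 4.79 at D7 and 9.39, 9.76 and 9.66 at D8, which is 28.7-fold (log2 fold change 4.84, SE 0.24, adjusted p 2e-08). At D10 it averaged 9.87 and at D28 4.14, so the gene was high only in the D8 and D10 pellets among the 4 time points. Of 18 integrin genes tested 3 were called, against 7.04% of all genes, and besides Itga2 these were Itgb3, higher by 1.34, and Itga4, lower by 2.15. Mmp10, stromelysin 2, was at or under 3 reads in all D7 libraries (0.94, 1.54 and 2.46) and at 6.51, 6.60 and 5.72 at D8 (adjusted p 2.1e-05). The neuropeptide genes Nmu and Cck also rose, Nmu from 2.66, 3.27 and 2.03 to 7.06, 6.70 and 6.31 and Cck from 3.93, 4.43 and 4.22 to 7.62, 7.14 and 7.39. Acox2, a peroxisomal oxidase of branched fatty acids and bile acid intermediates, rose 10.7-fold, from 6.39, 6.01 and 6.51 to 9.65, 9.80 and 9.70. Among the remaining 10 of the 15 largest rises were Slc13a3, Slc4a11, Hap1, Cd300lb, Dusp4, Prr32, Bglap2, Dnmt3l and Csn3, with changes of 3.21 to 3.72. The call of Csn3, a milk casein, was lost with a pseudocount of 0.1 (adjusted p 0.058).

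The AP-1 motif TGANTCA, bound by FOS and JUN dimers, was searched on both strands of the same sequences. It was held by 39 of 409 promoters of higher genes, 9.54%, by 30 of 479 of lower genes, 6.26%, and by 4.89% of all. Among the 15 largest rises, 10 had a promoter sequence and 3 of these held the motif, against none of 12 among the largest falls. A sequence with GC after the AP-1 motif can also match the antioxidant motif. The promoters of the 3 genes, Mmp10, Nmu and Acox2, are shown with the motif in capitals, in transcription direction, because they are the largest rises that hold it.
Mmp10, chr9:7502092-7502341, plus strand: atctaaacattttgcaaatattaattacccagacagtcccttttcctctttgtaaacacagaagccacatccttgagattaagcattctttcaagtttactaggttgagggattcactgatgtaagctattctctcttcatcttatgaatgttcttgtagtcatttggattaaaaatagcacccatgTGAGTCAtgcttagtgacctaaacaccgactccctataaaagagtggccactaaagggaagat
Nmu, chr5:76363778-76364027, minus strand: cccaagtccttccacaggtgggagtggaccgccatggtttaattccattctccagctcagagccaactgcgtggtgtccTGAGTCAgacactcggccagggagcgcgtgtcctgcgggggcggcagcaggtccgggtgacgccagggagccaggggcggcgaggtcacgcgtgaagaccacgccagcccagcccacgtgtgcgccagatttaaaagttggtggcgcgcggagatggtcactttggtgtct
Acox2, chr14:8259020-8259269, minus strand: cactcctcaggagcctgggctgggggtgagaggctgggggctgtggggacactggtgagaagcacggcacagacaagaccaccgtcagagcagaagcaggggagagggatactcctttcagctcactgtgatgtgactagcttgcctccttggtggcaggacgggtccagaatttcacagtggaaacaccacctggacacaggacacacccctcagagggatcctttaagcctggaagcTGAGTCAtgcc
The motif begins 63 bases before the start in Mmp10, 171 in Nmu and 11 in Acox2. The TEAD motif GGAATG showed the other order, with 16.1% of promoters of lower genes, 10.0% of higher genes and 11.0% of all. The ETS motif CCGGAAGT was less frequent in both called groups, 1.96% and 1.04% against 5.11%. Further motifs were searched. The RBPJ motif GTGGGAA was in 8.31% of promoters of higher genes and 6.47% of lower genes, against 5.51% of all. The NF-kB site was in 11.2% and 11.1%, against 8.81%, and the E2F motif TTTNNCGC in 6.36% and 3.97%, against 6.52%. The CRE, SRE, E-box and CArG box motifs were searched too, and their shares are not given. These shares are descriptions, since promoters of the groups may differ in base composition.

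Among the falls, Sult1a1, a sulfotransferase of phenols and hormones, was the largest by the naming rule. It stood at 7.48, 7.12 and 7.50 in the D7 libraries and at 1.62, 3.06 and 2.74 in the D8 libraries, a 29.7-fold difference (log2 fold change -4.89, SE 0.34, adjusted p 4e-07). Car3, carbonic anhydrase 3 of muscle and fat, was 15.2-fold lower, from 7.33, 8.23 and 7.19 to 2.92, 3.55 and 4.49. Txnip, an inhibitor of thioredoxin and of glucose uptake, fell from 12.49, 12.74 and 12.89 to 9.54, 9.29 and 9.80, which is 8.95-fold (SE 0.16 on the log2 scale, adjusted p 2e-08). No library of D8 reached the D7 range in these genes. The remaining 12 of the 15 were Rasl10b, Cbln1, Ackr4, Ibsp, Gadl1, Myh7, Adra2c, Sphkap, Trem1, Draxin, Oxtr and Cldn10, with changes between -3.25 and -3.74. Oxtr encodes the oxytocin receptor and went from 8.47, 8.15 and 8.29 to 4.37, 5.05 and 5.59.

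Bone matrix genes moved in both directions. Of 20 members, 6 were called higher and 3 lower, against 3.23% and 3.81% of all genes, and the median change was 0.43. Ibsp, bone sialoprotein, a mineral-binding matrix protein, fell 12.3-fold, from 15.87, 14.71 and 15.91 to 12.03, 11.88 and 11.73 (log2 fold change -3.61, SE 0.29, adjusted p 1.5e-06). Alpl, the phosphatase that releases phosphate for mineral, went from 13.67, 12.74 and 13.79 to 12.31, 12.22 and 12.11 (log2 fold change -1.19, adjusted p 0.0034), and its change was -0.99 without D7 replicate 3, short of the threshold. These D8 libraries were all below those of D7. Col1a1, the chain of type I collagen, stood at 18.92, 18.32 and 18.92 against 18.32, 17.16 and 17.38, so the groups touched at a shared value. Its call (-1.10, adjusted p 0.031) was lost with only the D7 and D8 libraries (adjusted p 0.10), without D7 replicate 1 or 3 (0.11 and 0.082) and without D8 replicate 2 or 3 (0.14 and 0.096). Without D7 replicate 3, 1 of the 20 members was called lower.

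Osteocalcin and dentin matrix protein changed the other way. Bglap2, an osteocalcin gene, went from 2.03, 3.63 and 3.87 to 6.71, 6.85 and 5.74 (log2 fold change 3.26, SE 0.39, adjusted p 4.2e-05), and Bglap from 2.03, 4.16 and 3.45 to 6.49, 6.22 and 5.07. Bglap3 was at or under 3 reads in each D7 library and at 3.71, 4.16 and 3.45 at D8, and its call was lost when low values were raised to the 3-read level (adjusted p 0.13). The 3 genes are near-identical neighbours on chromosome 3, so their reads may be split between them. Dmp1, a phosphoprotein of osteocytes, went from 4.92, 5.38 and 5.39 to 7.33, 7.33 and 7.21 (log2 fold change 2.06, SE 0.46, adjusted p 0.0045). Bglap2 averaged 6.43 at D8, 7.50 at D10 and 9.05 at D28, so its D8 level was below the later ones. Ank, which exports pyrophosphate and citrate, rose by 1.57 from 11.59, 11.92 and 11.82 to 13.51, 13.42 and 13.10. Enpp1, which makes extracellular pyrophosphate, changed by 0.77 and the phosphate transporter Slc20a1 by 0.70, both past the adjusted p but short of the fold threshold. Spp1, osteopontin, stood at 16.76, 16.92 and 16.64 against 18.02, 18.32 and 17.27 (log2 fold change 1.10, adjusted p 0.018). Its call was lost with only the D7 and D8 libraries (adjusted p 0.052) and without D7 replicate 1 or 3 (0.064 and 0.058) or D8 replicate 1 or 2 (0.074 and 0.096). Mepe and Ifitm5, osteocyte and osteoblast genes, overlapped between the groups at few reads.

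The factors that define the osteoblast did not pass the test at D8. Runx2 stood at 10.34, 9.77 and 10.37 against 10.02, 10.05 and 10.02 (log2 fold change -0.13, SE 0.15, adjusted p 0.59), and Sp7 at 10.61, 10.19 and 10.91 against 10.67, 10.80 and 10.37 (0.04, SE 0.20, adjusted p 0.91). Of 13 osteoblast transcription factors, Alx4, a homeodomain factor of limb and skull, was the single call, a share near the 7.04% of all genes called, from 8.70, 8.41 and 8.92 to 6.57, 7.09 and 6.55 (-1.94, adjusted p 1.1e-05). The paper took its transcription factors from genes altered at D8 and D10, whereas D8 alone is compared with D7 here. The median D10 minus D8 change of the 12 factors it examined was -2.47. Of these 12, only Nr1h4, the bile acid receptor FXR, was called at D8, also a share near 7.04%. It fell 7.71-fold, from 7.07, 5.97 and 7.23 to 3.91, 4.16 and 3.36 (log2 fold change -2.95, SE 0.38, adjusted p 7.8e-05), and averaged 1.47 at D10 and 6.59 at D28. Alx1 stood at 3.07, 3.82 and 2.46 against 3.29, 3.06 and 3.07, while Mesp1 and Grhl3 were at or under 3 reads in all D7 libraries. Hmx3 did not overlap between the groups (0.94, 0.00 and 1.37 against 2.03, 2.17 and 3.20), at 3 reads or fewer in 2 of the D8 libraries (adjusted p 0.077), and it was called only under the study's own rule, which does not adjust p-values.

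**Figure D3:**
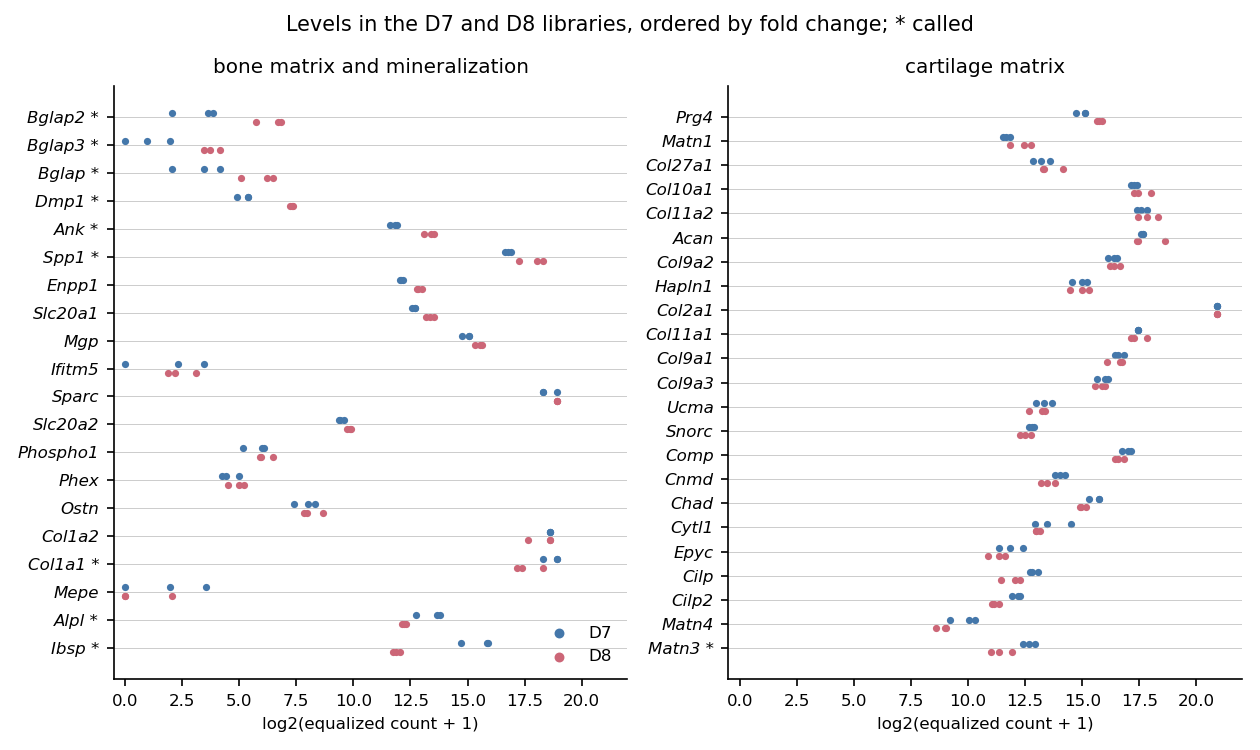
Levels, log2(equalized count + 1), of 20 bone matrix and mineralization genes (left) and 23 cartilage matrix genes (right) in the 3 D7 libraries (blue) and the 3 D8 libraries (red). Genes are ordered by fold change, lowest at the bottom, and an asterisk marks a called gene. Most cartilage genes overlap between the time points, and 9 bone genes were called, Ibsp with the largest fall.

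Of 23 cartilage matrix genes, 1 was called lower after 1 day, a share near the 3.81% of all genes, and none higher by limma, with 5 lower and 1 higher past the adjusted p alone, against 9.09% and 11.9% of all genes, 5 lower and 2 higher at an unadjusted p under 0.05 and a median change of -0.13. The called gene, Matn3, a matrilin of growth plate matrix, went from 12.94, 12.40 and 12.65 to 10.99, 11.34 and 11.93 (log2 fold change -1.24, SE 0.20, adjusted p 0.00043). Matn4 changed by -0.99, Cilp2 by -0.93 and Cilp by -0.92, short of the threshold, so the count of lower genes moved with the libraries left out. It was 3 without D7 replicate 2, 2 without D7 replicate 3, 2 without D8 replicate 1, 4 without D8 replicate 3 and 2 under median of ratios scaling. Prg4, the lubricant of the joint surface, changed by 0.77 (adjusted p 0.027). Acan, aggrecan, stood at 17.65, 17.65 and 17.56 against 17.38, 17.46 and 18.61, and Col10a1, the collagen of hypertrophic cartilage, at 17.38, 17.16 and 17.27 against 17.27, 18.02 and 17.46 (adjusted p 0.67). Sox9 stood between 12.03 and 12.55 at D7 and reached 12.02 and 12.31 in the higher 2 of the D8 libraries (-0.27, SE 0.16, adjusted p 0.28). Col2a1 held the largest value of the table, 20.92, in all 6 libraries, so the equalized values cannot show a change of it. Levels of the other most abundant matrix genes also take values shared between libraries, such as 18.92, and move in steps of rank. None of 16 chondrocyte transcription factors was called by limma, with 1 past the adjusted p in each direction and 2 higher and 1 lower at an unadjusted p under 0.05.

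Genes that remodel the matrix were called in both directions. Of 24 proteases and inhibitors, 7 were called lower and 2 higher, against 3.81% and 3.23% of all genes. Mmp13, the collagenase of hypertrophic cartilage, fell 6.23-fold, from 15.66, 15.09 and 15.79 to 13.02, 12.71 and 12.89 (log2 fold change -2.64, SE 0.28, adjusted p 1.5e-05). Adamts4, an aggrecanase, fell by 1.96, from 9.90, 9.59 and 10.49 to 8.03, 7.87 and 8.21. The D8 libraries lay at least 1 log2 unit under those of D7 in both genes. Plat, tissue plasminogen activator, fell by 1.69, Timp4 by 1.40, Adamts9 by 1.38, Mmp19 by 1.31 and Adamts12 by 1.12. In the other direction Timp1, a secreted inhibitor of metalloproteinases, rose by 1.47 from 12.57, 12.25 and 12.74 to 14.14, 14.00 and 13.82, beside the rise of Mmp10. Adamts5, the other main aggrecanase, changed by -0.31 (adjusted p 0.34), and Mmp14 by -0.01 (adjusted p 0.98).

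Elastic fibre and fibrous tissue genes fell in part. Of 18 elastic fibre genes, 5 were called lower and 1 higher, against 3.81% and 3.23% of all genes. Fbn2, fibrillin 2, fell 5.56-fold, from 12.82, 12.19 and 12.74 to 10.25, 9.86 and 10.21 (log2 fold change -2.48, SE 0.19, adjusted p 9.5e-07), whereas Fbn1 changed by 0.45 (adjusted p 0.020). The microfibril genes Mfap4 and Mfap2 fell by 1.61 and 1.60, Efemp1 by 1.19 and Adamtsl2 by 1.11, and Loxl4, a collagen crosslinking oxidase, rose by 1.17. Of 15 tendon and joint genes, 5 were called lower, against the same 3.81%, and none higher. Lum, lumican, a proteoglycan that binds fibrillar collagen, went from 15.44, 14.77 and 15.01 to 13.25, 13.05 and 12.71 (-2.07, adjusted p 5.8e-05). Ogn fell by 1.72, Tnc by 1.40, the ETS factor Erg by 1.28 and Dcn by 1.10. The tendon factor Scx stood at 8.20, 8.29 and 8.27 against 8.81, 8.85 and 8.06 (adjusted p 0.35), with overlapping groups.

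**Figure D4:**
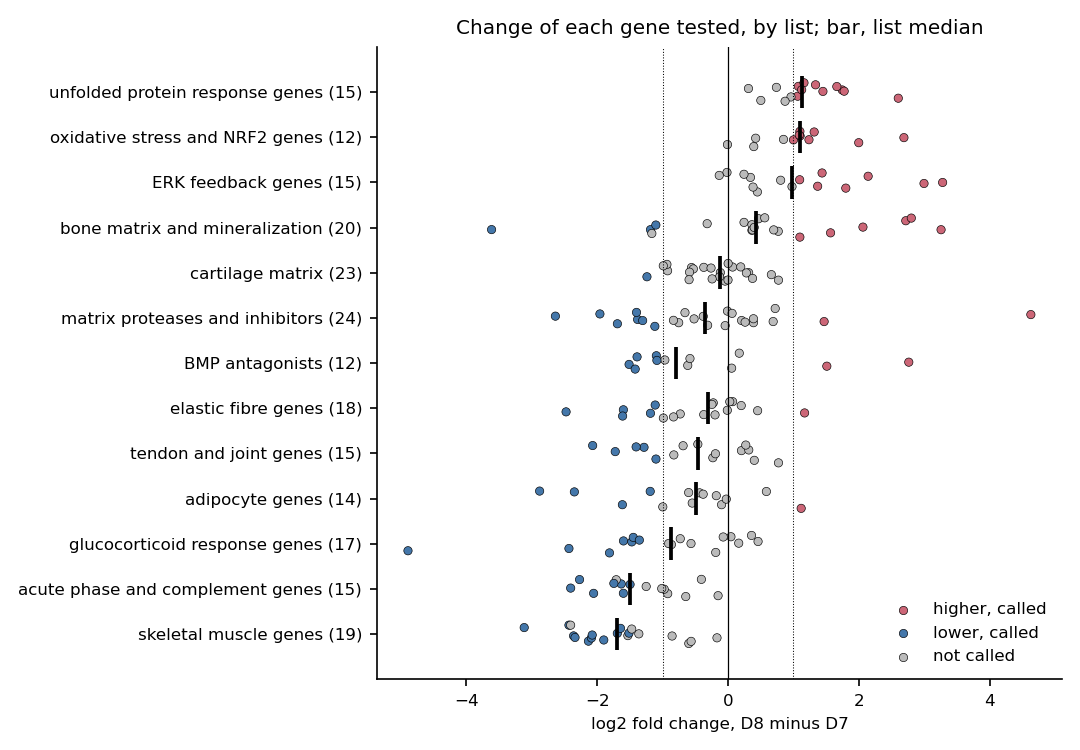
Each point is 1 tested gene of 13 lists, with the number of genes in parentheses. The x axis is the log2 fold change, D8 minus D7, bars are list medians and dotted lines mark a change of 1. Called members of the 3 upper lists are all higher at D8 and those of the 3 lower lists all lower, while the bone matrix list holds calls in both directions.

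BMP signalling genes called at D8 were mostly secreted antagonists, which bind BMPs and keep them from their receptors. Of 12 antagonists, 5 were called lower and 2 higher, against 3.81% and 3.23% of all genes. Nog, noggin, went from 10.52, 10.34 and 10.46 to 8.58, 8.99 and 9.51 (-1.42, adjusted p 0.00015), and Chrdl1 from 11.80, 11.70 and 11.71 to 10.01, 10.23 and 10.42 (-1.51, adjusted p 1.2e-06). Fstl3 fell by 1.39, Chrdl2 by 1.10 and Fst by 1.09. Grem1, gremlin 1, was among those that went the other way, from 10.87, 10.86 and 10.70 to 12.49, 12.26 and 12.21 (2.85-fold, adjusted p 1.6e-06). Without D8 replicate 2 the count of lower antagonists was 3. Among 15 ligands and receptors 2 were called higher: Bmp2 rose by 2.08 (SE 0.27, adjusted p 7e-05) and Bmp3 by 1.19, the latter with an adjusted p of 0.060 without D7 replicate 1. Of 9 target genes of the pathway, Hey1, a Notch target too, was the single call, higher by 1.27. Both counts are to be read against the 3.23% of all genes called higher.

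Calls in other signalling lists are read against the 7.04% of all genes called. Of 29 Wnt ligands, receptors and targets, 4 were called: Wnt11 fell by 1.58, Wnt4 by 1.21 and the receptor Fzd4 by 1.12, and the factor Tcf7 rose by 1.22. Among 10 secreted Wnt antagonists, 3 were called: Dkk3 fell by 1.93 and Sfrp1 by 1.57 while Sfrp4 rose by 1.36. Of 5 genes of the RANKL system 2 were called. Tnfsf11, which encodes the osteoclast cytokine RANKL, fell by 1.53 and Il34, a ligand of the macrophage receptor CSF1R, rose by 1.66. Of 9 vitamin D genes 3 were called, Spp1 and Bglap higher, as given above, and Vdr, the vitamin D receptor, lower by 1.63 (adjusted p 1.1e-05). Of 14 targets of YAP and serum response factor, 2 were called: Ankrd1 fell by 2.35 and Ccn1 by 1.06, the latter by 0.995 without D7 replicate 1 and 0.985 without D7 replicate 3. The list moved both ways, with 5 of the 14 higher and 5 lower past the adjusted p alone. Of 12 TGF-beta ligands, receptors and storage genes, Tgfb3 was the single call, lower by 1.10, and by 0.97 without D7 replicate 3.

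Genes known to respond to glucocorticoids fell in part. Of 17 tested members, 7 were called lower and none higher, against 3.81% of all genes lower, and 4 others passed the adjusted p with falls under 1. Tsc22d3, a leucine zipper protein known as GILZ, went from 13.64, 13.77 and 13.76 to 12.17, 12.20 and 12.46 (log2 fold change -1.45, SE 0.11, adjusted p 7.8e-07). Cebpd, a CCAAT-binding factor, went from 12.05, 11.77 and 11.99 to 10.03, 10.04 and 10.31 (-1.81, SE 0.11, adjusted p 9.9e-08). Fkbp5, a cochaperone of the receptor, went from 13.09, 12.79 and 13.18 to 12.11, 12.12 and 12.24 (-0.87, adjusted p 0.00010), without overlap but short of the fold threshold. In all 3 genes the gap between the groups was larger than the range within either group. The metallothioneins Mt2 and Mt1, which are near copies, fell by 2.43 and 1.47, Hsd11b2, which inactivates glucocorticoids, by 1.60 and Zbtb16 by 1.36. Sult1a1 belongs to this list too. Nr3c1, the receptor gene, stood at 10.14, 10.18 and 10.06 against 10.09, 9.99 and 10.08 (adjusted p 0.67). Klf9 (0.04), Dusp1 (0.16), Cebpb (0.36) and Angptl4 (0.46) did not pass the adjusted p.

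Acute phase and complement genes fell in part. Of 15 members, 7 were called lower, against 3.81% of all genes, all 15 had a negative change, and the median was -1.50. Hp, haptoglobin, fell 4.15-fold from 13.68, 12.93 and 13.71 to 11.73, 11.08 and 11.34. The D7 and D8 levels of Hp were separated by more than 1 log2 unit. Serping1, the C1 inhibitor, fell by 1.75, C1s1 by 1.63, C2 by 1.60 and Cfd by 1.50. Orm1 changed by -2.27 (adjusted p 0.038) at few reads, and its call was lost without any 1 of D7 replicates 1, 2 and 3 or D8 replicates 2 and 3 (adjusted p up to 0.17). C3 changed by -0.98 and C1ra by -0.92, past the adjusted p alone, and C4b and Lcn2 overlapped between the groups. The members of this list averaged higher at D28 than at D10, with a median D28 minus D10 change of 3.88. None of 14 interferon response genes was called by limma, with 1 lower past the adjusted p and 3 lower at an unadjusted p under 0.05.

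Skeletal muscle genes were expressed at D7 and fell in part at D8. Of 19 tested members, 11 were called lower and none higher, against 3.81% of all genes lower, 17 did not overlap, against 37.1% of all genes, and the median change was -1.69. Myh3, embryonic myosin heavy chain, went from 8.98, 9.53 and 8.57 to 5.72, 6.01 and 6.01, which is 8.67-fold (log2 fold change -3.12, SE 0.53, adjusted p 0.00072). Myog, the factor of muscle differentiation, went from 7.58, 7.93 and 7.29 to 5.37, 5.85 and 6.50 (-1.69, adjusted p 0.0087), and its adjusted p was 0.054 without D8 replicate 1. Neb, nebulin of the thin filament, went from 8.64, 8.73 and 7.81 to 5.43, 5.99 and 6.75. Actc1 fell by 2.43, Actn2 by 2.13, Tnni1 by 2.09 and Ttn by 1.90. Without D8 replicate 1, 7 members were called. Myod1 changed by -1.47 (adjusted p 0.079), Acta1 by -1.36 (adjusted p 0.12) and Myf5 by -0.17 (adjusted p 0.90). All 6 muscle markers were lower in each D8 library than in each D7 library, 2 of them called, and they summed to 2361 to 2972 at D7 and to 692.5 to 1198 at D8. In bulk pellets, fewer cells of a type and less RNA per cell cannot be told apart.

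Adipocyte genes fell in part. Of 14 members, 4 were called lower and 1 higher, against 3.81% and 3.23% of all genes. Retn, resistin, went from 5.62, 5.85 and 5.60 to 2.92, 3.55 and 3.55, Adipoq, adiponectin, from 6.65, 7.67 and 6.86 to 5.97, 5.33 and 5.03 and Fabp4 from 11.99, 11.98 and 11.73 to 11.00, 10.64 and 10.49. Lep, leptin, stood at 4.04, 3.12 and 3.26 at D7 and at or under 3 reads in all D8 libraries, and the call was lost with low values raised to the 3-read level (adjusted p 0.17). Plin2, a coat protein of lipid droplets in many cell types, was higher by 1.12. Pparg, the adipocyte master factor, overlapped between the groups (-0.38, adjusted p 0.32). The 5 adipocyte markers, 3 of them called lower, summed to 3831 to 4492 at D7 and 1678 to 2302 at D8. The 7 endothelial markers summed to 1205 to 1385 at D7 and 564 to 771 at D8, a sum made up mainly of Erg. Pecam1 and Cdh5, which define endothelium, instead stood at 2.37, 3.73 and 3.26 and at 2.03, 3.12 and 2.79 at D7 and at 6.38, 4.67 and 5.12 and at 5.90, 3.26 and 3.71 at D8. Pecam1 was called (2.27, adjusted p 0.025), a call lost without D7 replicate 1 (0.11), without D8 replicate 1 (0.13), with low values raised to the 3-read level (0.055) and with no trend in the variance (0.062). Kdr, a VEGF receptor, was at or under 3 reads in all D7 libraries and was called (2.55, adjusted p 0.0425), a call lost with low values raised to the 3-read level (0.72) and without any 1 of D7 replicates 1 and 2 and D8 replicates 1, 2 and 3 (adjusted p up to 0.14). Cdh5 did not pass the test (1.64, adjusted p 0.095), and Tie1, Emcn and Tek overlapped between the groups. D8 replicate 1 stood above the other D8 libraries, with a median difference from the D7 mean over the 7 markers of 2.88 against 0.62 and 1.06.

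Few genes of the cell cycle were called, although most replication genes lay higher and most mitosis genes lower. Without overlap between the libraries, 17 of 22 replication genes were higher, against 21.2% of all genes. In the same way 14 of 20 mitosis genes were lower, against 15.9%. Of 22 DNA replication genes, 3 were called higher, against 3.23% of all genes, and none lower, 11 passed the adjusted p, all higher, against 11.9% of all genes, and the median change was 0.53. Cdc6, which loads the replicative helicase, went from 6.09, 6.10 and 6.04 to 7.38, 7.62 and 7.36 (log2 fold change 1.38, SE 0.23, adjusted p 0.00053). Mcm10 rose by 1.18 and Mcm5 by 1.08, the latter at 0.98 without D7 replicate 1 and 0.99 without D8 replicate 1. Of 20 mitosis genes, 1 was called lower, a share near the 3.81% of all genes, and none higher, 7 passed the adjusted p, all lower, against 9.09%, and the median was -0.55. The called gene, Cenpf, a kinetochore protein, went from between 8.83 and 9.03 to 7.69, 7.79 and 7.59 (-1.26, adjusted p 0.0011). Of 18 circadian clock genes, 3 were called higher, against 3.23% of all genes, and these were Hlf (1.79), Ciart (1.05) and Dbp (1.05). The list did not move 1 way, with 6 members higher and 5 lower past the adjusted p alone, against 11.9% and 9.09%. Dbp fell short of the threshold under median of ratios scaling (0.999), without D7 replicate 2 (0.91) and without D8 replicate 3 (0.95), and Ciart without D7 replicate 2 (0.97). None of 22 cholesterol synthesis genes was called by limma, with 2 in each direction past the adjusted p and 3 higher and 2 lower at an unadjusted p under 0.05. Of 12 targets of p53, 3 were called, against 7.04% of all genes, and 5 higher and 1 lower passed the adjusted p alone, against 11.9% and 9.09%. Gdf15, a stress cytokine, rose by 1.52, Bax, an effector of apoptosis, by 1.03, and Sesn1 fell by 1.48. Bax was short of the threshold under median of ratios scaling (0.98) and without D7 replicate 2 (0.94), D8 replicate 1 (0.97) or D8 replicate 2 (0.96).

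For 28 genes all 3 D8 libraries were above the other 9 libraries of the series and D8 was called against D7, D10 and D28, and for 19 genes the same held in the low direction. These counts describe a choice made on the same values. Among the former were Derl3, with means of 6.89 at D10 and 5.64 at D28, H2-Pb, a pseudogene in the RefSeq annotation (2.66, 2.30 and 0.00 against 4.37, 5.33 and 5.91) and the ephrin ligand Efnb3 (2.37, 1.54 and 1.37 against 5.18, 4.79 and 4.81). Gzmd was at 0 in all D7, D10 and D28 libraries and at 3.58, 2.17 and 2.74 at D8, so its presence rests on a few reads. Among the latter was Ccdc152, with 5.27, 5.24 and 4.92 at D7, 1.06, 2.52 and 1.87 at D8 and a mean of 4.45 at D10.

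Many of the changes were opposite in sign in the last interval of the protocol, from D10 to D28, which shares no library with the comparison of D8 and D7. Of the 571 genes higher at D8, 311 fell between D10 and D28, 54.5%, and 50 rose, 8.76%. The background over all tested genes was 13.7% lower and 13.8% higher, and the median D28 minus D10 change of the 571 genes was -1.27. Of the 673 genes lower at D8, 387 rose, 57.5%, and 62 fell, 9.21%, with a median of 1.61. The list medians by library show the same for single groups. Relative to D7, the ERK feedback genes stood at 0.76 to 1.11 in the D8 libraries, at 2.07 to 2.11 at D10 and at 0.34 to 0.65 at D28. The unfolded protein response genes stood at 1.06 to 1.33 at D8, 0.79 to 1.13 at D10 and 0.09 to 0.34 at D28. Skeletal muscle genes did not return, with -1.92 to -1.38 at D8 and -5.07 to -3.89 at D28. Glucocorticoid response genes had their lowest medians at D8, -0.91 to -0.78, and stood at -0.30 to -0.17 at D10 and 0.14 to 0.32 at D28.

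**Figure D5:**
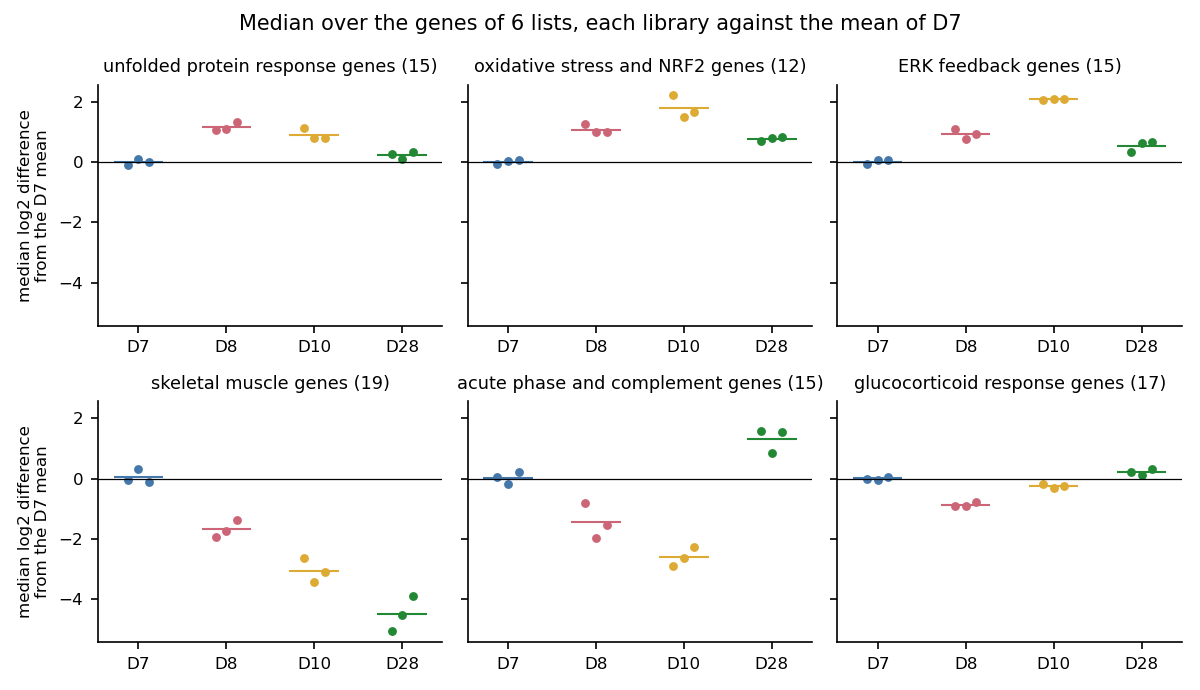
For 6 lists, each point is 1 library and gives the median over the list's genes of the difference in level from the mean of the 3 D7 libraries, in log2 units. Lines are means of 3 libraries, and numbers in parentheses count genes. ERK feedback genes are higher at D10 than at D8, acute phase and complement genes are lowest at D10 and above D7 at D28, and skeletal muscle genes are lower at each later time point.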

How the data were processed

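The authors prepared stranded poly(A) libraries and, per their supplementary methods, aligned paired-end reads with HISAT2, annotated them with Cufflinks, counted reads per gene with HTSeq, and equalized and transformed the counts in Matlab. The submitters' processing notes also list Trimmomatic 0.36 and the build GRCm38, while the supplementary methods name the human build hg38. The file lists mouse gene symbols, and positions given here are those of RefSeq GRCm38.p6. The deposited values are log2 of the equalized count plus 1, in 1 column for each of the 12 libraries, with nearly identical sorted values in each, so depth is known only through the lowest levels.

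A gene was tested where 3 or more libraries had a log2 value of 1 or above, which held for 17674 of 28244 genes. Of the others, 7935 were at 0 in each library. Means of the 4 time points were fitted over all 12 libraries with limma 3.58.1 in R 4.3.3, with a prior variance that follows mean level and 8 residual degrees of freedom. Two-sided p-values were adjusted by the Benjamini-Hochberg method across every gene tested. Reads behind a low value were taken from its rank among the library's distinct values, and such counts and their floor of 3 reads cover counting error only.

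The genes named were the 15 largest rises and 15 largest falls among called genes whose libraries did not overlap and whose mean was in the upper 75% of tested genes, leaving out unnamed gene models. Up to 4 called members of each of 56 lists were added first by size, then the defining genes of cartilage and bone and the factors the study examined, and up to 6 genes highest or lowest at D8. Some genes that this rule names are not reported here. Other members of a described list were chosen after their values were seen. The members of the lists, and the ERSE motif, were chosen with earlier results of these data known. Promoters were matched by symbol to a RefSeq table of 32851 sequences with Python 3.11.15 and pandas 2.3.3, and figures were drawn with matplotlib 3.10.9.

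Alternatives covered the filter, the pseudocount, the scaling, the fold threshold, the variance trend, the libraries fitted, the study's own test, a replicate block and each replicate left out. The labels name no sequencing batch or date, so none was examined. They describe 2 Illumina stranded mRNA kits, Stranded mRNA Prep and TruSeq, without saying which libraries were made with which, so a kit difference between time points could not be examined. No pairing of replicates across time points is stated.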

Additional observations from a re-analysis of the deposited data

How the results depend on the processing

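The counts of called genes at D8 (1244, of which 571 were higher and 673 lower) depended most on the fold threshold. With a log2 fold change of at least 2 the counts were 388, 185 and 203, and without a fold threshold, at an adjusted p under 0.05, they were 3714, 2107 and 1607. Leaving out each D7 or D8 replicate in turn gave 1006 to 1219 called genes, 433 to 578 higher and 535 to 657 lower, and fewer libraries were fitted in each of these. The study's own rule, an unadjusted test per gene with the same fold threshold, gave 1492 genes. The other settings gave 1068 to 1257. None of the 157 called changes of named genes reversed its sign under the settings tried, but this outcome was nearly fixed in advance. Each of these changes was at least 1 in size, and several settings leave the means of the groups as they are. Of the 16 named genes that were not called, 5 reversed their sign. Under median of ratios scaling Sp7 stood at -0.0070 and Alx1 at -0.025, and with low values raised to the level of 3 reads Alx1 stood at -0.12 and Zkscan16 at 0.13. With 1 replicate left out, the change ranged from -0.15 to 0.22 for Sp7, -0.31 to 0.37 for Alx1, -0.52 to 0.44 for Zkscan16, -0.42 to 0.20 for Barx2 and -0.20 to 0.41 for Acan. The deviations of same-numbered D7 and D8 libraries had correlations of -0.046, 0.049 and -0.039. With 3 libraries per group, these values cannot show whether same-numbered pellets shared an isolation. With a replicate block 1210 genes were called, 556 higher and 654 lower. Depth limits genes at or under 3 reads. With low values raised to the level of 3 reads, 1077 genes were called and 18 of the 157 called changes of named genes lost their call.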
